A study of Homo sapiens with 12 samples.

Results

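The genes described here are YAP1 and WWTR1, which encode the transcriptional coactivators YAP and TAZ, their DNA-binding partner TEAD1, and 7 genes widely used as readouts of the pair: CTGF, CYR61, ANKRD1, THBS1, AMOTL2, LATS2 and AJUBA. They were taken by symbol from the deposited table of counts, in which all 10 had a row among 24641 gene symbols, and all 10 were among the 15648 genes with enough reads to be tested. RNA sequencing was done on MDA-MB-231 cells, a human breast cancer line with mesenchymal features. The groups were shRIPOR3 cells in hypoxia, shControl cells in hypoxia, shRIPOR3 cells in normoxia and shControl cells in normoxia, with 3 libraries each and 12 in all. shRIPOR3 cells carried a short hairpin RNA against RIPOR3, and shControl cells carried a control hairpin. Hypoxia was 1% O2 for 24 hours, and the study addressed what RIPOR3 does in tumour growth and spread. Both arms were the same cell line, the labels name no second hairpin against RIPOR3 and no rescue, and nothing in them says that replicates came from separate cultures. The p-values below therefore reflect the spread among these libraries alone, and that spread may be technical.

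In the Hippo pathway, the kinases MST1 and MST2 (genes STK4 and STK3) activate LATS1 and LATS2, which phosphorylate YAP and TAZ so that they are held in the cytoplasm or degraded. When the kinases are less active, YAP and TAZ enter the nucleus, bind TEAD factors and drive genes for matrix-associated proteins and growth. Their entry is also favoured by a stiff matrix or a contractile actin cytoskeleton. The pathway is controlled mainly through phosphorylation, localisation and protein stability, none of which RNA levels show.

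Library totals ran from 31781324 to 52526813 counts in hypoxia and from 14750734 to 30032858 in normoxia, so depth differed with the oxygen level. RIPOR3 itself gave 9, 3 and 11 counts in hypoxic shRIPOR3 libraries and 33, 18 and 30 in hypoxic shControl libraries. In normoxia it gave 0, 0 and 1 counts in shRIPOR3 libraries and 7, 3 and 7 in shControl libraries. It was lower in shRIPOR3 by the edgeR test in hypoxia (log2 fold change -2.19 ± 0.314 SE, adjusted p = 1.69e-06) and in normoxia (adjusted p = 0.0013), at counts too low to give a precise fold. NDRG1, a standard hypoxia-induced gene, reached 483 ± 11.2 CPM in hypoxic and 71.6 ± 1.02 CPM in normoxic shRIPOR3 cells, and 1971 ± 30.7 CPM in hypoxic and 167 ± 5.00 CPM in normoxic shControl cells (mean ± SD, n = 3 each). CPM are counts scaled to library size with TMM factors, which correct for library composition. CD44 and VIM, markers of this line, had group means of at least 446 and 410.1 CPM, whereas ESR1, PGR and CDH1, which it lacks or expresses weakly, stayed at or below 0.226, 0.527 and 1.21 CPM. EPCAM, of the same list, had group means from 4.95 to 7.26 CPM and was higher in shRIPOR3 in hypoxia (0.28, adjusted p = 0.0157) and in normoxia (0.34, adjusted p = 0.0167). Of the markers of blood and endothelial cells, PTPRC and CD3E were near 0 throughout, and PECAM1 was at 1.31 ± 0.232 CPM in hypoxic shRIPOR3 cells and 4.84 ± 0.307 CPM in hypoxic shControl cells.

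Promoter sequences of the genes were read from RefSeq (GRCh38.p14), which gave 11 windows for 8 of the 10 genes, each of 300 bases from 250 before to 50 after a transcription start. They are shown because the TEAD element, searched as GGAATG on both strands, is a site to which the TEAD partners of YAP and TAZ bind. Capitals mark the element (CATTCC where it lies on the other strand). The lines give the 250 bases before the start, 5′ to 3′ on the strand of the gene, at chr6:131951373-131951622 on the minus strand for CTGF, chr10:90921088-90921337 on the minus strand for ANKRD1, chr15:39580829-39581078 on the plus strand for THBS1, chr3:134374448-134374697 on the minus strand for the second AMOTL2 start and chr3:149658026-149658275 on the minus strand for the second WWTR1 start. For LATS2 the line is the 28 bases around an element just after the start, chr13:21061561-21061588 on the minus strand.
CTGF: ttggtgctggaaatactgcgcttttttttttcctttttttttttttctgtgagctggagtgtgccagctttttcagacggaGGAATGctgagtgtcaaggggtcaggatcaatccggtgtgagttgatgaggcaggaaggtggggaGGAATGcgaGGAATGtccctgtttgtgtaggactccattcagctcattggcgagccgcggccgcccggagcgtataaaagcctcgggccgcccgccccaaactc
ANKRD1: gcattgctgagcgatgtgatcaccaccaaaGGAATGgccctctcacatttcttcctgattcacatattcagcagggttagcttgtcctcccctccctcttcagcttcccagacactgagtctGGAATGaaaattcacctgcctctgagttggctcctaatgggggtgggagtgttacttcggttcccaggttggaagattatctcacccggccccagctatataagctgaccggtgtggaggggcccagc
THBS1: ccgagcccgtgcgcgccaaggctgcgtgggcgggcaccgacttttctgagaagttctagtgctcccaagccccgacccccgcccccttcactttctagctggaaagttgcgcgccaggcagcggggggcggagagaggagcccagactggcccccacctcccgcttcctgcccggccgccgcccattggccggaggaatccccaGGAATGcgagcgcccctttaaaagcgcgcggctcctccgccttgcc
AMOTL2: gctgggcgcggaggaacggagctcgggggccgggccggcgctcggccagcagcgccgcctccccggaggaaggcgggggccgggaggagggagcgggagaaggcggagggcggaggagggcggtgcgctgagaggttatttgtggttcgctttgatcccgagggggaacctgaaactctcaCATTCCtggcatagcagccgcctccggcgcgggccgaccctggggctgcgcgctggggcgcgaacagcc
WWTR1: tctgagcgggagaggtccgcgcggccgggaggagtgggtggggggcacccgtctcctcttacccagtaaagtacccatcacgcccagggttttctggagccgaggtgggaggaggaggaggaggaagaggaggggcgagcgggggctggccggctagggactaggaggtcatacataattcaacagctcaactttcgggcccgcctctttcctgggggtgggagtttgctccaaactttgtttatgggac
LATS2: gtgacgcccgtGGAATGccaacaatgta

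The CTGF window held 3 elements, at 169, 104 and 95 bases before the start, and the ANKRD1 window held 2, at 220 and 128 bases before it. YAP1, THBS1, LATS2, and a start each of AMOTL2 and AJUBA held 1. The letters were not found in either WWTR1 window, nor in the first windows of AMOTL2 and AJUBA, and TEAD1 and CYR61 had no window to search. Among 35116 RefSeq windows of the same length, 14.0% held the element at least once, 1.37% at least 2 times and 0.128% at least 3 times. The AP-1 element (TGANTCA, both strands), in 7.71% of all windows, was found in ANKRD1 alone, 195 bases before the start. The core of the hypoxia response element (ACGTG, both strands), in 21.4% of all windows, was found in YAP1, LATS2 and both windows of AJUBA, and in none of the windows of CTGF, THBS1, AMOTL2, ANKRD1 and WWTR1. In YAP1 and LATS2 both matches were 1 palindromic stretch read on either strand. These are matches of letters in the reference, not measured binding. Only these windows were searched, so a window without a match says nothing about sites farther from the start.

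**Figure D1:**
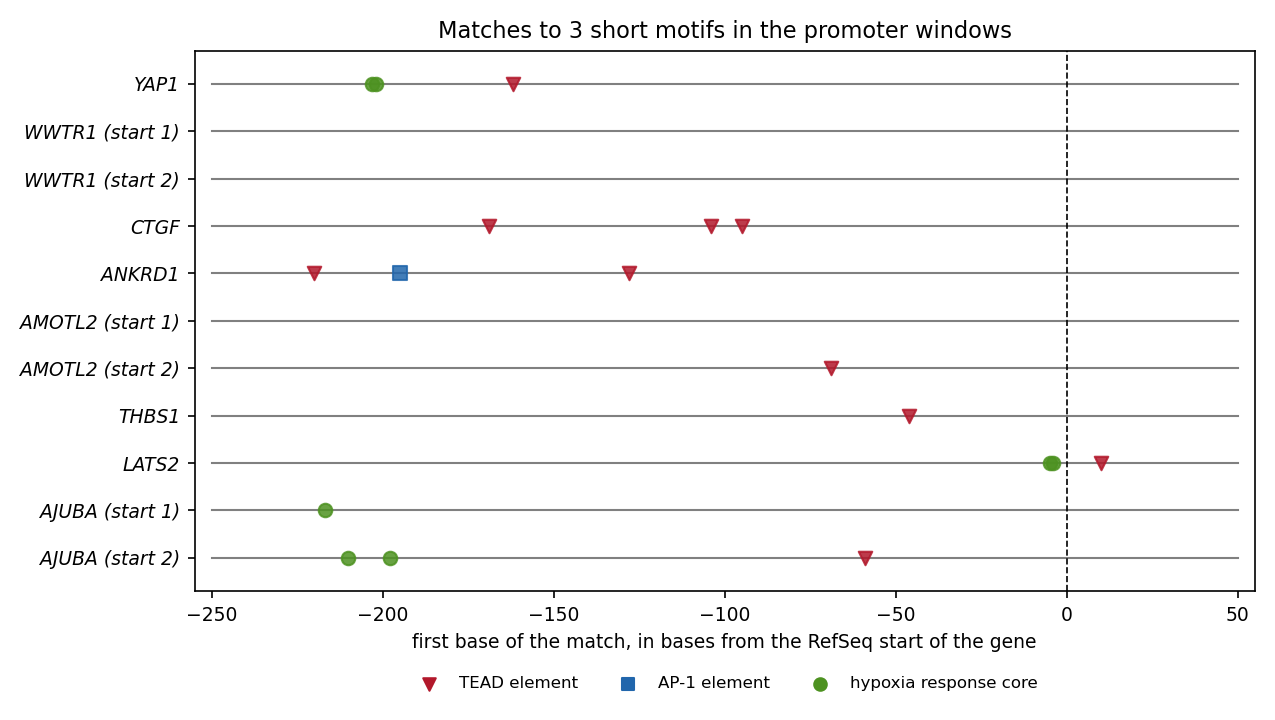
Matches of 3 sequence elements in the RefSeq promoter windows, drawn by distance from the transcription start in bases (x axis) for each window (rows). Markers stand for the TEAD element, the AP-1 element and the hypoxia response core; CTGF carries 3 TEAD elements, ANKRD1 carries 2 and the windows of WWTR1 carry none.

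The 2 coactivator genes did not move together when RIPOR3 was knocked down. WWTR1 (chromosome 3, 149517235 to 149736714, minus strand, GRCh38) stood at 43.9, 44.2 and 44.4 CPM in hypoxic shRIPOR3 libraries and at 84.2, 89.4 and 86.7 CPM in hypoxic shControl libraries, and at 36.4, 33.4 and 34.0 CPM in normoxic shRIPOR3 libraries and 57.1, 59.6 and 58.7 CPM in normoxic shControl libraries. All 6 shRIPOR3 libraries lay below all 6 shControl libraries, whatever the oxygen level. YAP1 (chromosome 11, 102110461 to 102233423, plus strand) stood at 138, 135 and 137 CPM in hypoxic shRIPOR3 libraries and at 143, 147 and 144 CPM in hypoxic shControl libraries. In normoxia it stood at 112, 112 and 108 CPM in shRIPOR3 libraries and at 93.7, 99.8 and 101 CPM in shControl libraries. So all hypoxic libraries lay above all normoxic ones, and the hairpins stood in the opposite order in the 2 oxygen conditions. In bulk RNA, fewer cells with a transcript and less of it per cell cannot be told apart.

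WWTR1 fell in shRIPOR3 cells, by 0.97 ± 0.0375 on the log2 scale in hypoxia (edgeR quasi-likelihood test, Benjamini-Hochberg adjusted p = 2.02e-16) and by 0.76 ± 0.0448 in normoxia (adjusted p = 1.43e-12), the figures after ± for log2 values being standard errors here and below. YAP1 was higher in normoxic shRIPOR3 cells by 0.17 ± 0.0386 (adjusted p = 0.000731). In hypoxia the YAP1 difference was -0.08 ± 0.0352 with a 95% interval from -0.148 to -0.00297, and it missed the threshold of 0.05 (adjusted p = 0.0657), although the 3 shRIPOR3 libraries lay below the 3 shControl libraries. Alternatives gave adjusted p-values from 0.0286 to 0.402 for that difference. The ratio of WWTR1 to YAP1 counts put the contrast within each library. It was 0.322 ± 0.00421 in hypoxic shRIPOR3 cells and 0.601 ± 0.0104 in hypoxic shControl cells, and 0.313 ± 0.0122 in normoxic shRIPOR3 cells and 0.596 ± 0.0139 in normoxic shControl cells (SD, n = 3 each). The hairpin groups did not overlap in this ratio, and the 2 oxygen groups of a hairpin differed by less than the larger of their SDs.

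Hypoxia went with more of both transcripts in each hairpin. WWTR1 was higher in hypoxia than in normoxia by 0.36 ± 0.0432 in shRIPOR3 cells and by 0.57 ± 0.0393 in shControl cells. YAP1 was higher by 0.31 ± 0.0367 in shRIPOR3 cells and by 0.56 ± 0.0372 in shControl cells, with an adjusted p of at most 1.61e-07 for these 4 differences. WWTR1-AS1, an antisense gene that shares exonic sequence with WWTR1, had 2 to 10 counts per library, equal to 0.325% of those of WWTR1 over all libraries. The strand setting of the counting is not given in the sources used here, so antisense reads cannot be told apart. YAP1 and CTGF also overlap annotated antisense genes, and AJUBA overlaps a protein-coding gene on its own strand. None of these overlapping genes was found by its symbol among those counted, so they were not analysed here.

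TEAD1, the TEAD factor of the set, moved by small steps in 1 direction with hypoxia and with the knockdown. It stood at 100.005, 101 and 97.3 CPM in hypoxic shRIPOR3 libraries and 95.4, 92.9 and 86.2 CPM in hypoxic shControl libraries. In normoxia the values were 85.2, 80.5 and 85.2 CPM in shRIPOR3 libraries and 69.7, 67.7 and 71.1 CPM in shControl libraries. The 4 groups were thus ordered without overlap, the lowest hypoxic shControl library lying just above the highest normoxic shRIPOR3 library. TEAD1 was higher in shRIPOR3 by 0.12 ± 0.0394 in hypoxia (adjusted p = 0.0107) and by 0.26 ± 0.0442 in normoxia (adjusted p = 2.74e-05), and higher in hypoxia by 0.25 ± 0.0412 in shRIPOR3 cells and 0.39 ± 0.0424 in shControl cells. The first of these 4 calls did not hold without hypoxic shControl replicate 3, where the difference was 0.09 (adjusted p = 0.0546), nor after thinning all libraries to one total (0.07, adjusted p = 0.178).

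**Figure D2:**
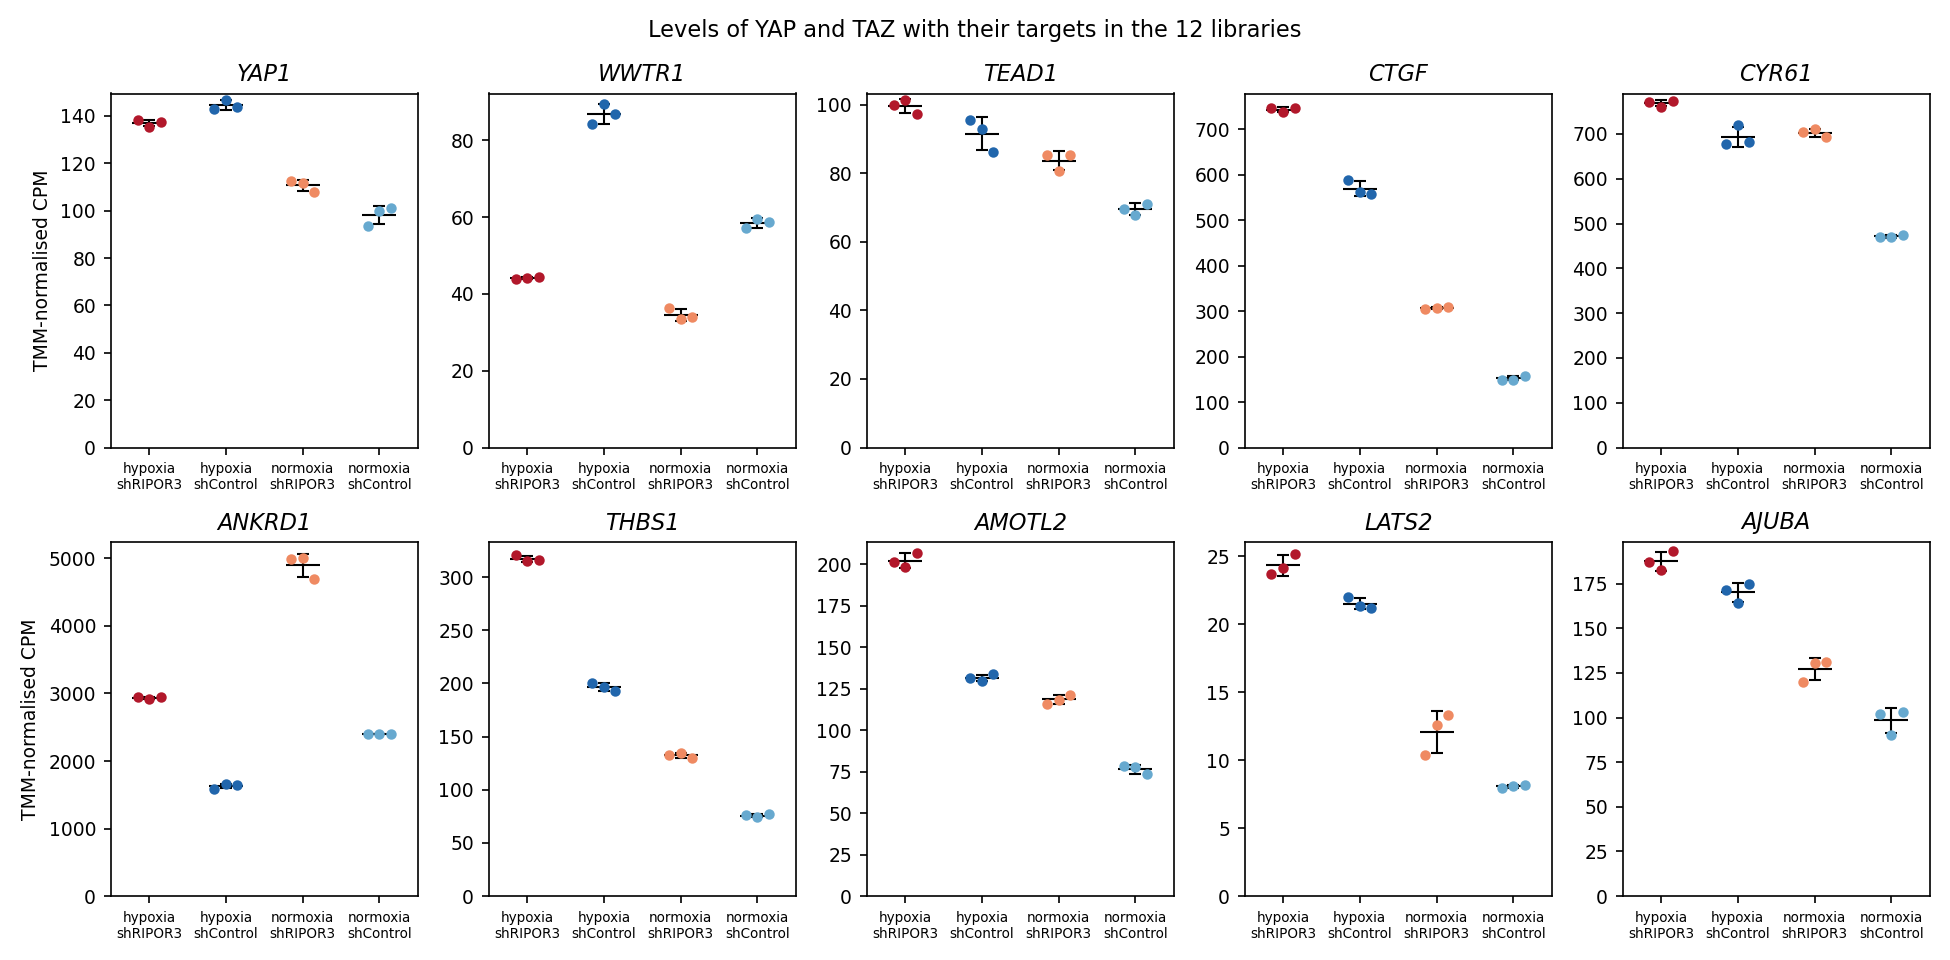
Level of each of the 10 genes in every library, as CPM after TMM scaling (y axis, from 0), with the 4 groups along the x axis. Points are libraries, long bars are group means and short bars mark 1 SD either side; WWTR1 sits lower in shRIPOR3 at both oxygen levels, ANKRD1 is the gene that lies lower in hypoxia, and most other targets are highest in hypoxic shRIPOR3 cells.

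The secreted matrix-associated proteins CTGF and CYR61, of the CCN family, are the most used readouts of YAP and TAZ. CTGF (chromosome 6, 131948176 to 131951373, minus strand) stood at 746, 737 and 747 CPM in hypoxic shRIPOR3 libraries and at 588, 562 and 557 CPM in hypoxic shControl libraries. In normoxia it stood at 305, 307 and 309 CPM in shRIPOR3 libraries and at 149.6, 149 and 157 CPM in shControl libraries. The groups were well apart, with hypoxic shRIPOR3 cells highest and normoxic shControl cells lowest. CTGF was higher in shRIPOR3 by 0.39 ± 0.0352 in hypoxia (adjusted p = 1.23e-09) and by 1.01 ± 0.0377 in normoxia (adjusted p = 5.34e-16), that is 1.31-fold and 2.02-fold. It was higher in hypoxia by 1.28 ± 0.0363 in shRIPOR3 cells (adjusted p = 2.23e-18), where it was 2.42-fold, and by 1.90 ± 0.0377 in shControl cells.

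CYR61 (chromosome 1, 85580761 to 85583962, plus strand) was flatter. It stood at 772, 761 and 773 CPM in hypoxic shRIPOR3 libraries, 678, 719 and 682 CPM in hypoxic shControl libraries, 703, 711 and 692 CPM in normoxic shRIPOR3 libraries and 469.5, 469.8 and 475 CPM in normoxic shControl libraries. Hypoxic shControl and normoxic shRIPOR3 libraries overlapped, and normoxic shControl cells stood apart as the low group. CYR61 was higher in shRIPOR3 by 0.15 ± 0.0351 in hypoxia (adjusted p = 0.000749) and by 0.57 ± 0.0358 in normoxia (adjusted p = 4.03e-12). It was higher in hypoxia by 0.13 ± 0.0353 in shRIPOR3 cells (adjusted p = 0.00296) and by 0.56 ± 0.0356 in shControl cells (adjusted p = 1.56e-12). The first of these hypoxia differences was 0.25 when libraries were scaled by their totals alone. The ratio of CTGF to CYR61 counts was 0.967 in hypoxic shRIPOR3 cells, 0.822 in hypoxic shControl cells, 0.437 in normoxic shRIPOR3 cells and 0.322 in normoxic shControl cells.

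ANKRD1, an ankyrin repeat protein of the nucleus and the sarcomere first known as a cardiac stress-response gene, was the target that went the other way under hypoxia. ANKRD1 (chromosome 10, 90912096 to 90921276, minus strand) stood at 2942, 2924 and 2954 CPM in hypoxic shRIPOR3 libraries and at 1591, 1653 and 1639.6 CPM in hypoxic shControl libraries. In normoxia it stood at 4991, 5004 and 4702 CPM in shRIPOR3 libraries and at 2397, 2395 and 2397 CPM in shControl libraries. Both shRIPOR3 groups lay above both shControl groups, and within each hairpin the hypoxic libraries were the lower ones. ANKRD1 fell in hypoxia by 0.74 ± 0.0371 in shRIPOR3 cells (adjusted p = 5.78e-14) and by 0.56 ± 0.0371 in shControl cells (adjusted p = 2.99e-12). It was higher in shRIPOR3 by 0.85 ± 0.0372 in hypoxia (adjusted p = 1.99e-15) and by 1.03 ± 0.0374 in normoxia (adjusted p = 2.9e-16).

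THBS1, which encodes the secreted matrix glycoprotein thrombospondin-1, stood at 321, 315 and 316 CPM in hypoxic shRIPOR3 libraries and at 200.4, 196 and 193 CPM in hypoxic shControl libraries. In normoxia it stood at 133, 134 and 129.8 CPM in shRIPOR3 libraries and at 75.9, 74.1 and 77.2 CPM in shControl libraries. The steps between groups were large against the spread within them at both oxygen levels. THBS1 was higher in shRIPOR3 by 0.69 ± 0.0334 in hypoxia (adjusted p = 1.24e-14) and by 0.80 ± 0.0377 in normoxia (adjusted p = 2.49e-14), and higher in hypoxia by 1.26 ± 0.0349 in shRIPOR3 cells and by 1.37 ± 0.0366 in shControl cells. FSIP1, which overlaps THBS1 on the opposite strand, had 10 to 30 counts per library, equal to 0.279% of those of THBS1.

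AMOTL2, LATS2 and AJUBA are targets that also act on the pathway. AMOTL2, an angiomotin family protein that binds YAP and holds it outside the nucleus, stood at 202, 198 and 207 CPM in hypoxic shRIPOR3 libraries and at 131, 129.6 and 134 CPM in hypoxic shControl libraries. In normoxia it stood at 116, 118 and 121 CPM in shRIPOR3 libraries and at 78.2, 77.7 and 73.5 CPM in shControl libraries. Hypoxic shRIPOR3 libraries were the highest, and no 2 groups overlapped. AMOTL2 was higher in shRIPOR3 by nearly the same amount at both oxygen levels, 0.62 ± 0.0351 in hypoxia (adjusted p = 2.12e-13) and 0.64 ± 0.0392 in normoxia (adjusted p = 3.33e-12), and higher in hypoxia by 0.77 ± 0.0363 in shRIPOR3 cells and 0.78 ± 0.0381 in shControl cells.

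LATS2, the kinase that phosphorylates YAP and TAZ, was the scarcest gene of the set. It stood at 23.7, 24.2 and 25.2 CPM in hypoxic shRIPOR3 libraries, 21.99, 21.4 and 21.2 CPM in hypoxic shControl libraries, 10.4, 12.6 and 13.3 CPM in normoxic shRIPOR3 libraries and 7.99, 8.07 and 8.19 CPM in normoxic shControl libraries. The step between oxygen levels was the large one, and no groups overlapped. LATS2 was higher in hypoxia by 0.98 ± 0.0642 in shRIPOR3 cells (adjusted p = 5.45e-12) and by 1.41 ± 0.0716 in shControl cells (adjusted p = 2.13e-14), and higher in shRIPOR3 by 0.18 ± 0.0538 in hypoxia (adjusted p = 0.00619) and by 0.61 ± 0.083 in normoxia (adjusted p = 1.9e-06). Its hairpin difference in hypoxia was 0.10 with an adjusted p of 0.251 after thinning. AJUBA, a LIM domain protein that binds and inhibits LATS kinases, ranged from 183 to 193 CPM in hypoxic shRIPOR3 cells, 164 to 175 CPM in hypoxic shControl cells, 120.0 to 131 CPM in normoxic shRIPOR3 cells and 90.3 to 103 CPM in normoxic shControl cells. AJUBA was higher in shRIPOR3 by 0.14 ± 0.0435 in hypoxia (adjusted p = 0.00688) and 0.37 ± 0.0478 in normoxia (adjusted p = 1e-06), and higher in hypoxia by 0.56 ± 0.0452 in shRIPOR3 cells and 0.78 ± 0.0463 in shControl cells.

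Counted over the set, 8 of the 10 genes were called higher and 1 lower (WWTR1) in shRIPOR3 against shControl in hypoxia, with YAP1 not called. Among all genes tested, 61.9% were called in that comparison, 30.7% higher and 31.2% lower. In normoxia 9 were called higher and 1 lower (WWTR1), where 45.7% of all genes were called, 25.1% higher and 20.6% lower. The median log2 fold change over the 10 genes was 0.163 in hypoxia and 0.59 in normoxia, beside -0.00285 and 0.0331 over all genes tested. The 10 genes were chosen with earlier results of these data known. Their counts and medians, here and below, are a description and not a test. The replicates of the 2 hairpins did not overlap for any of the 10 genes at either oxygen level, which held for 66.0% of all genes in hypoxia and 51.8% in normoxia. The 2 hairpin comparisons use separate libraries, whereas each shares its libraries with the hypoxia comparisons.

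**Figure D3:**
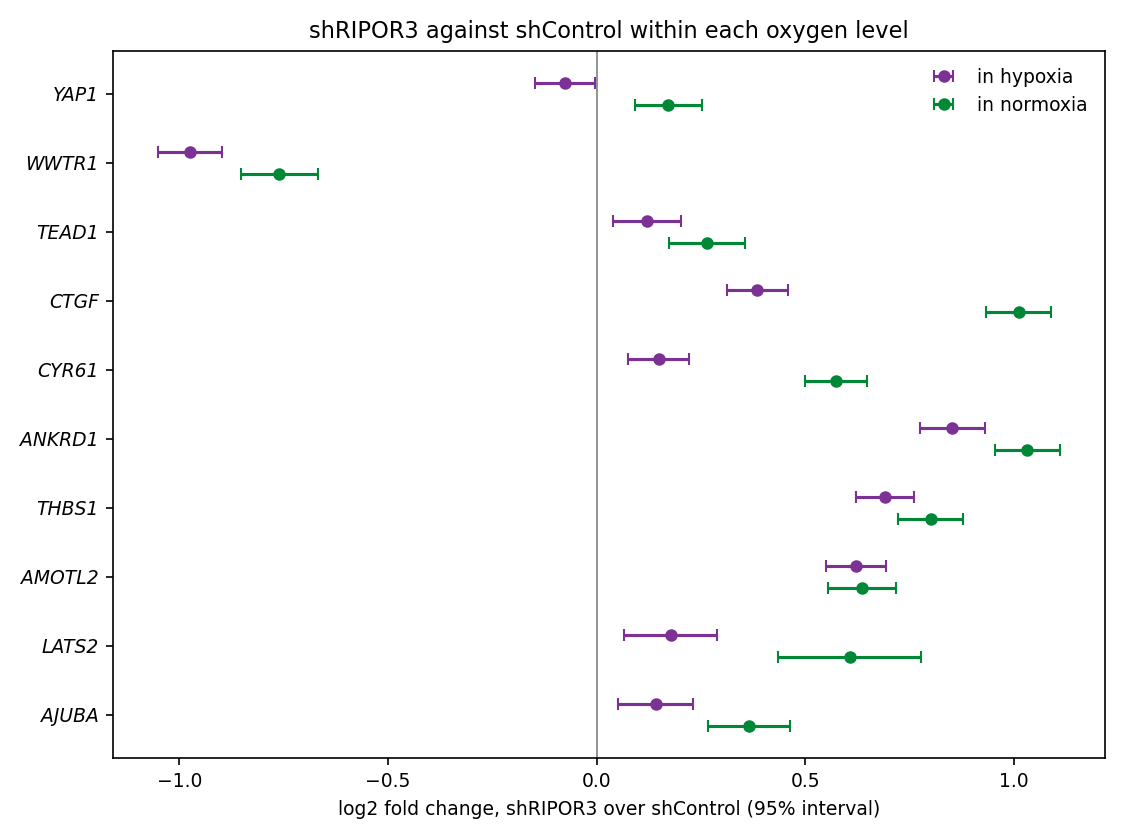
Log2 fold change of shRIPOR3 over shControl for the 10 genes (rows) with 95% intervals, in hypoxia and in normoxia. Points right of 0 are higher in shRIPOR3; WWTR1 lies left of 0 at both oxygen levels, and the points for CTGF, CYR61 and LATS2 lie nearer 0 in hypoxia than in normoxia.

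For hypoxia against normoxia, 9 of the 10 genes were called higher and 1 lower (ANKRD1) in shRIPOR3 cells, where 55.6% of all genes were called, 25.2% higher and 30.4% lower. The counts were also 9 and 1 (ANKRD1) in shControl cells, where 64.8% of all genes were called, 32.4% in each direction. Medians over the 10 genes were 0.458 in shRIPOR3 cells and 0.677 in shControl cells, beside -0.0128 and 0.0158 over all genes. All 10 genes had replicates that did not overlap between oxygen levels in both hairpins, which held for 61.2% of all genes in shRIPOR3 and 67.2% in shControl cells. Scaling by library totals alone raised the median of all genes by 0.123 in shRIPOR3 cells and 0.110 in shControl cells and left the direction of the 10 genes as it was. With so many genes called in every comparison, a call for 1 gene says little about how it stands among the rest, and the sizes above say more.

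**Figure D4:**
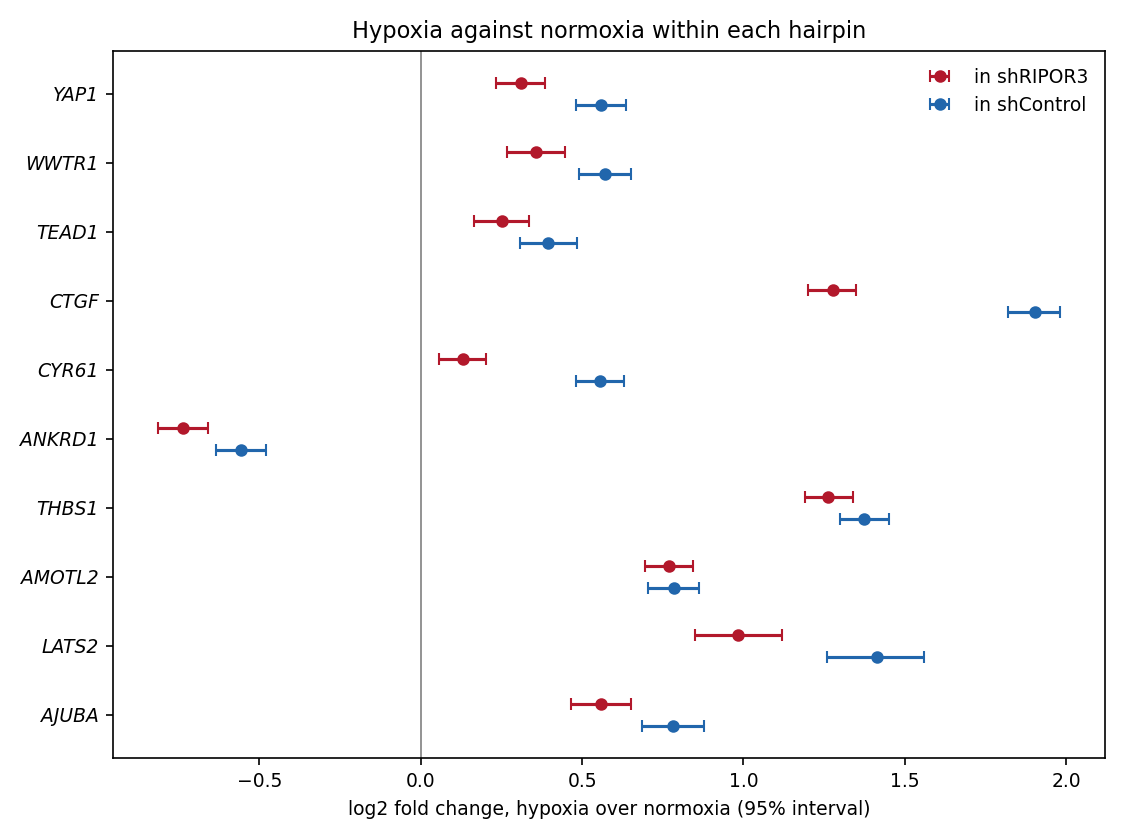
Log2 fold change of hypoxia over normoxia for the 10 genes (rows) with 95% intervals, in shRIPOR3 cells and in shControl cells. ANKRD1 lies left of 0 in both, CTGF lies farthest right in shControl cells, and the shRIPOR3 point lies left of the shControl point for every gene.

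Whether the hypoxia effect differed between hairpins was tested as an interaction, the hypoxia difference in shRIPOR3 cells minus that in shControl cells. It was called below 0 for 7 of the 10 genes and above 0 for none, where 23.2% of all genes were called, 10.9% above and 12.3% below 0. The median over the 10 genes was -0.219, beside -0.0202 over all genes. CTGF had the largest interaction of the set at -0.63 ± 0.0515 (adjusted p = 6.28e-09), followed by LATS2 at -0.43 ± 0.0992 (adjusted p = 0.00271), CYR61 at -0.43 ± 0.0501 (adjusted p = 1.56e-06) and YAP1 at -0.25 ± 0.0523 (adjusted p = 0.00124). These 4 calls held under every alternative run.

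AJUBA at -0.22 ± 0.0646, WWTR1 at -0.21 ± 0.0586 and ANKRD1 at -0.18 ± 0.0523 had adjusted p-values of 0.0137, 0.00935 and 0.0149, and each lost its call when single libraries were left out. Without hypoxic shControl replicate 2 the adjusted p was 0.109 for ANKRD1 (interaction -0.13) and 0.0729 for WWTR1 (-0.16). Without hypoxic shControl replicate 3 it was 0.0657 for ANKRD1 (-0.14) and 0.0667 for AJUBA (-0.17). Leaving out normoxic shRIPOR3 replicate 2 gave 0.0543 for ANKRD1 (-0.16), leaving out normoxic shRIPOR3 replicate 3 gave 0.0532 for AJUBA (-0.20), and running no filter on low counts gave 0.0742 for ANKRD1 (-0.16). No interaction was called for AMOTL2 at -0.01 ± 0.0525 (95% interval -0.123 to 0.0941), THBS1 at -0.11 ± 0.0502 (-0.213 to -0.00571) and TEAD1 at -0.14 ± 0.0592 (-0.266 to -0.0215). The interval of AMOTL2 excludes an interaction as large as that of CTGF. Among the hypoxia markers, NDRG1 and VEGFA also responded less in shRIPOR3 cells, with interactions of -0.81 ± 0.0542 and -0.70 ± 0.054 (adjusted p = 2e-10 and 2.38e-09), and CA9 had -1.36 ± 1.2 (adjusted p = 0.517). CA9 had 1, 1 and 0 counts in normoxic shRIPOR3 libraries and 4, 2 and 3 in normoxic shControl libraries, too few for a precise interaction. The part of these hypoxia markers in the result was not tested.

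CTGF, THBS1, AMOTL2, LATS2, AJUBA and TEAD1 shared one order of the 4 groups, highest in hypoxic shRIPOR3 cells, then hypoxic shControl, normoxic shRIPOR3 and normoxic shControl, with no overlap between neighbours. The other 4 genes each had an order of their own. YAP1 was highest in hypoxic shControl, then hypoxic shRIPOR3, normoxic shRIPOR3 and normoxic shControl. WWTR1 ran from hypoxic shControl through normoxic shControl and hypoxic shRIPOR3 to normoxic shRIPOR3, and ANKRD1 from normoxic shRIPOR3 through hypoxic shRIPOR3 and normoxic shControl to hypoxic shControl. CYR61 was highest in hypoxic shRIPOR3 and lowest in normoxic shControl, with overlapping replicates in between. Within a group, the coefficient of variation of a gene over its 3 libraries had a median of 2.08% and reached 12.7% for LATS2 in normoxic shRIPOR3 cells.

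Levels of different genes were compared per kilobase of annotated exon (GENCODE 29), which does not account for the isoform in use. ANKRD1 was the most abundant gene of the set in every group, at 1486 CPM per kb in hypoxic shRIPOR3, 823 in hypoxic shControl, 2475 in normoxic shRIPOR3 and 1211 in normoxic shControl cells. That put it at rank 6, 20, 4 and 13 in those groups among 23777 genes with a length. CTGF had 318 CPM per kb in hypoxic shRIPOR3 and 65.0 in normoxic shControl cells, and CYR61 had 313 and 192 CPM per kb in the same groups. YAP1 had 21.8 CPM per kb in hypoxic shRIPOR3 cells, 22.9 in hypoxic shControl, 17.6 in normoxic shRIPOR3 and 15.6 in normoxic shControl cells, and WWTR1 had 5.25, 10.3, 4.11 and 6.95 CPM per kb in those 4 groups, so TAZ mRNA was the rarer of the pair throughout. TEAD1 ranged from 6.76 to 9.68 and LATS2 from 1.45 to 4.37 CPM per kb over the group means.

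The other 17 genes of a list of common YAP and TAZ targets, all tested, did not all follow the set. In shRIPOR3 against shControl, 5 were called higher and 7 lower in hypoxia (median -0.0648), where 61.9% of all genes were called, and 9 higher and 3 lower in normoxia (median 0.236), where 45.7% were. FJX1, a relative of the fly gene four-jointed, was higher in shRIPOR3 by 0.76 ± 0.0442 in hypoxia and 0.54 ± 0.0533 in normoxia, and GADD45A, a stress-response gene, by 0.34 ± 0.0497 in hypoxia and 0.74 ± 0.0553 in normoxia. ASAP1, an Arf GTPase-activating protein, was higher by 0.61 ± 0.0502 in normoxia. In hypoxia ASAP1 stood at 184 ± 10.1 CPM in shRIPOR3 and 155 ± 6.25 CPM in shControl cells (SD, n = 3 each). AXL, a receptor tyrosine kinase, was higher in shRIPOR3 by 0.25 ± 0.0359 in hypoxia and 0.15 ± 0.0368 in normoxia. NT5E, the ectonucleotidase CD73, was lower by 0.64 ± 0.0363 in hypoxia and 0.53 ± 0.0371 in normoxia, and DOCK5, an exchange factor for Rac, by 0.56 ± 0.0398 in hypoxia and 0.24 ± 0.0463 in normoxia.

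IGFBP3, a secreted binding protein of insulin-like growth factors, was lower in shRIPOR3 than in shControl in hypoxia by 1.27 ± 0.0345. It stood at 75.4 ± 0.986 CPM in hypoxic shRIPOR3, 182 ± 3.85 CPM in hypoxic shControl, 66.1 ± 1.88 CPM in normoxic shRIPOR3 and 46.4 ± 0.695 CPM in normoxic shControl cells (SD, n = 3 each). In hypoxia against normoxia, 12 of the 17 were called higher and 2 lower in shRIPOR3 (median 0.305), and 14 higher and none lower in shControl cells (median 0.495), where 55.6% and 64.8% of all genes were called. With library totals alone, 13 were higher in shRIPOR3 and 15 in shControl cells, and none was lower in either. PTPN14, a phosphatase that binds YAP, was higher in hypoxia by 0.72 ± 0.0438 in shRIPOR3 and 1.04 ± 0.044 in shControl cells. CRIM1, a membrane protein that binds growth factors, was higher by 0.66 ± 0.037 in shRIPOR3 and 1.11 ± 0.0371 in shControl cells. The interaction was called below 0 for 9 of the 17 and above 0 for 1, FJX1, beside 23.2% of all genes called, with -1.78 ± 0.0537 for IGFBP3 and -0.59 ± 0.087 for F3, the tissue factor gene.

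Other Hippo components were examined as a list of 27, of which 26 were tested and VGLL1 was not analysed here. In shRIPOR3 against shControl, 7 were called higher and 11 lower in hypoxia (median -0.121, 61.9% of all genes called) and 9 higher and 7 lower in normoxia (median 0.0255, 45.7% called). MAP4K4, a kinase that can activate LATS1 and LATS2 alongside MST1 and MST2, had the largest change of the list. It stood at 163, 175 and 169 CPM in hypoxic shRIPOR3 libraries and at 465, 479 and 464 CPM in hypoxic shControl libraries, and at 144, 142 and 148 CPM in normoxic shRIPOR3 libraries and 405, 370.4 and 371 CPM in normoxic shControl libraries. All 6 shRIPOR3 libraries were far below all 6 shControl libraries. MAP4K4 fell by 1.47 ± 0.0404 in hypoxia (adjusted p = 5.05e-19) and by 1.40 ± 0.042 in normoxia (adjusted p = 1.19e-17).

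FRMD6 and WWC1 (KIBRA), scaffold proteins upstream of the kinases, were higher in shRIPOR3, FRMD6 by 0.42 ± 0.0335 in hypoxia and 0.64 ± 0.0347 in normoxia and WWC1 by 0.45 ± 0.0377 in hypoxia and 0.52 ± 0.0432 in normoxia. LATS1 was higher by 0.29 ± 0.049 in hypoxia and 0.29 ± 0.0621 in normoxia. AMOTL1, a relative of AMOTL2, was lower by 0.42 ± 0.0356 in hypoxia and 0.27 ± 0.0386 in normoxia. Among the TEAD factors, TEAD2 was lower in shRIPOR3 by 0.83 ± 0.0945 in hypoxia and 0.59 ± 0.11 in normoxia, and TEAD3 was lower by 0.19 ± 0.0594 in hypoxia and 0.44 ± 0.0733 in normoxia, opposite in direction to TEAD1. TEAD4 was higher in shRIPOR3 in hypoxia by 0.22 ± 0.0522 (adjusted p = 0.00075), as TEAD1 was, and had -0.02 ± 0.0618 in normoxia (adjusted p = 0.853).

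Under hypoxia, 15 of the 26 components were called higher and 6 lower in shRIPOR3 (median 0.206), and 16 higher and 4 lower in shControl cells (median 0.322), where 55.6% and 64.8% of all genes were called. With library totals alone the counts became 18 higher and 3 lower in shRIPOR3 and 18 higher and 1 lower in shControl cells. FAT1, a large atypical cadherin, was higher in hypoxia by 0.94 ± 0.0467 in shRIPOR3 and 1.04 ± 0.0474 in shControl cells. WWC3, a relative of WWC1, was higher by 0.85 ± 0.0368 in shRIPOR3 and 0.99 ± 0.0374 in shControl cells. LIMD1, a relative of AJUBA, was higher by 0.84 ± 0.0585 in shRIPOR3 and 1.03 ± 0.0579 in shControl cells. STK3 (MST2) was lower by 0.67 ± 0.0447 in shRIPOR3 and 0.61 ± 0.0441 in shControl cells. The interaction was called below 0 for 7 components and above 0 for 2, TEAD4 and TAOK2, where 23.2% of all genes were called.

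**Figure D5:**
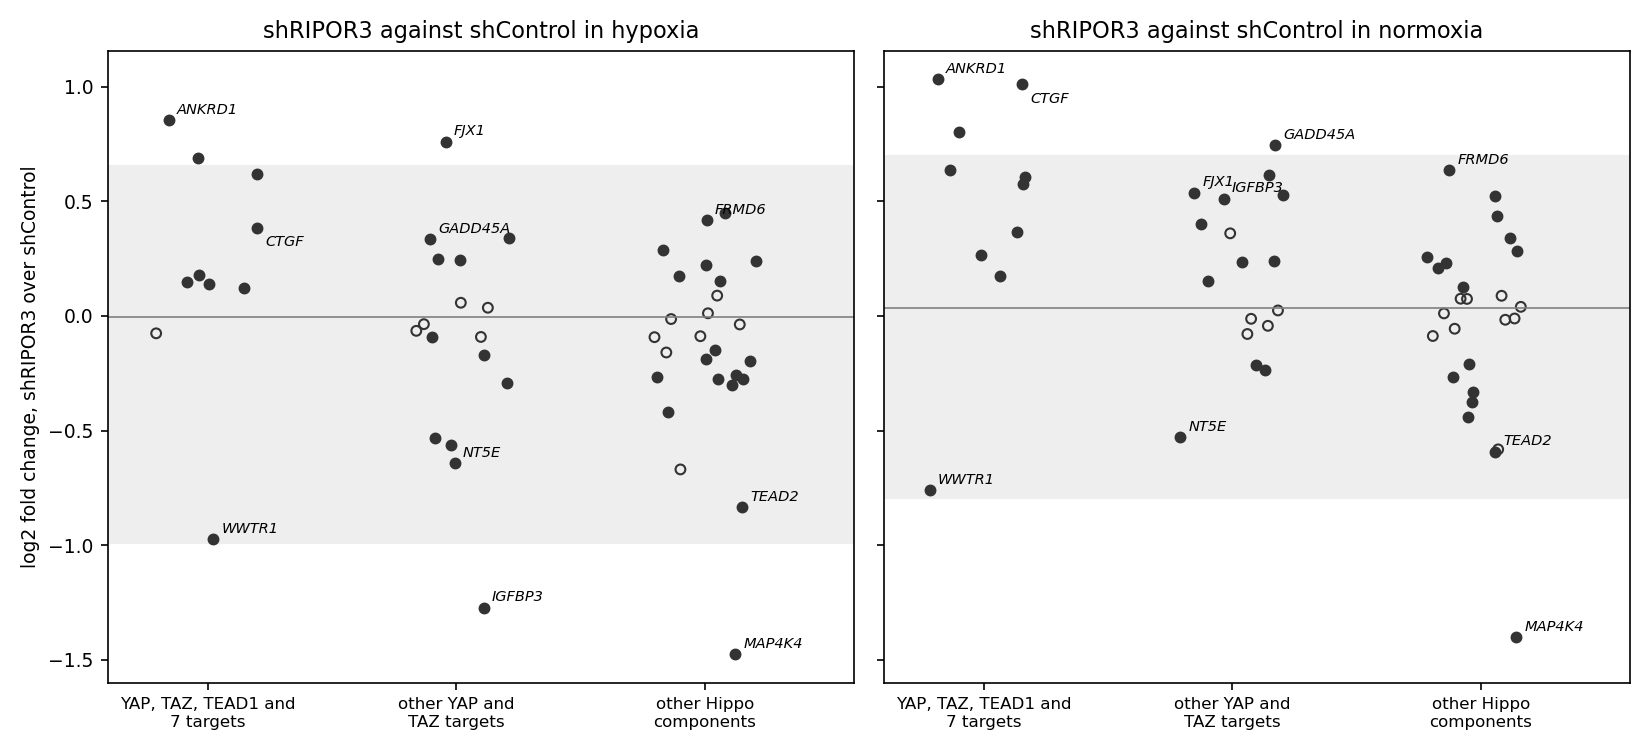
Log2 fold change of shRIPOR3 over shControl for each gene (points) of the 10-gene set and of the 2 further lists, in hypoxia and in normoxia. Filled points passed the adjusted p threshold of 0.05, open points did not, and the grey band runs from the 5th to the 95th percentile of all genes tested and the grey line is their median; WWTR1 and MAP4K4 lie low at both oxygen levels.

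The genes whose pattern was most like that of 4 members were ranked by the root mean square difference of log2 CPM, each gene centred on its own mean, over the 12 libraries among 9780 candidates. PATL1 and AASS lay close to YAP1, at 0.0408 and 0.0463 on that measure. SLIT2 lay nearest to CTGF, at 0.0549 against a CTGF range of 2.32, ahead of FRAS1 (0.193) and NFATC2 (0.203). SLIT2 stood at 21.0 CPM in hypoxic shRIPOR3, 15.4 CPM in hypoxic shControl, 8.72 CPM in normoxic shRIPOR3 and 3.94 CPM in normoxic shControl cells. TBC1D9, CNOT6L and ADARB1 lay nearest to CYR61 (0.0645, 0.0691 and 0.0692), and TUBE1, CYSTM1 and ZFAS1 to ANKRD1 (0.114, 0.125 and 0.131). Within the set the closest pair was TEAD1 and YAP1 (0.108), and the farthest was ANKRD1 and CTGF (1.13), which shared a hairpin direction and differed in their hypoxia direction. As a ratio of counts, ANKRD1 to CTGF was 3.96 in hypoxic shRIPOR3, 2.86 in hypoxic shControl, 15.98 in normoxic shRIPOR3 and 15.8 in normoxic shControl cells.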

How the data were processed

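Messenger RNA libraries of MDA-MB-231 cells were made with a stranded kit, per the labels' protocols. The authors deposited raw counts per gene symbol, 1 column per library. Tools named in the submitters' processing notes are featureCounts, STAR 2.5.3a and fastp 0.23.4, with GRCh38 as the build. Annotation and strand setting were not given in the sources used here. A spreadsheet had changed 24 symbols to dates, and these were kept.

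A model over all 12 libraries was fitted to the counts with edgeR 4.0.16 under R 4.3.3, using 1 coefficient per group, TMM factors (0.9517 to 1.048) and filterByExpr. Quasi-likelihood tests were adjusted by Benjamini and Hochberg over 15648 genes with a threshold of 0.05. The biological coefficient of variation was 3.74%, and every replicate pair differed by more than counting error (chi-square per degree of freedom 2.65 to 6.18). The pipeline was tested on simulated data.

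The 10 genes and the lists were chosen with earlier results of these data known. From each list the rule takes up to 3 genes per direction and comparison with the largest change, among those called, at 5 CPM or more and, outside the interaction, with replicates that do not overlap. The text names only some of these, and adds further TEAD factors that were chosen after their values were seen. Alternatives were DESeq2 1.42.0, other scalings, other filters, thinning, a replicate block, fits to the compared groups, leaving out each library and a threshold of 0.01. Sequences and figures used Python 3.11.15 with pandas 2.3.3 and matplotlib 3.10.9. A gene that the rule for likeness takes and 1 further list are not reported here.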

Additional observations from a re-analysis of the deposited data

Results flagged for a closer look

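For 7 of the 10 genes the test of the difference itself found that the response to hypoxia was not the same in the 2 hairpins (edgeR quasi-likelihood test of the interaction, Benjamini-Hochberg adjusted), where 23.2% of all genes were called. The difference between the hypoxia effect in shRIPOR3 cells and that in shControl cells was -0.63 for CTGF, -0.43 for CYR61, -0.43 for LATS2, -0.25 for YAP1, -0.22 for AJUBA, -0.21 for WWTR1 and -0.18 for ANKRD1 on the log2 scale. For 6 of these genes the increase under hypoxia was the smaller one in shRIPOR3 cells, and for ANKRD1 the decrease was the larger one there. The calls for AJUBA, WWTR1 and ANKRD1 did not hold when single libraries were left out.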

How the results depend on the processing

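Each of the 50 tests on the 10 genes was repeated under up to 21 other settings. Of 1040 such values, 1020 kept their direction and their side of the threshold, 10 lost their call, 2 gained one and 8 changed sign. All 8 belong to the interaction of AMOTL2, which was never called. It was 0.00768 with median-of-ratios size factors, 0.00104 without a filter, 0.00661 in DESeq2 and between -0.0298 and 0.0348 when single libraries were left out. A call was gained for YAP1 between hairpins in hypoxia with a filter of 1 CPM in 3 libraries (-0.09, adjusted p = 0.0286) and for the interaction of TEAD1 after thinning (-0.20, adjusted p = 0.0291). The cause of these changes was not tested. These values all use a threshold of 0.05. At 0.01 the interactions of AJUBA (adjusted p = 0.0137) and ANKRD1 (0.0149) and the hairpin call of TEAD1 in hypoxia (0.0107) would be lost too, and 2185 of all genes were called for the interaction, against 3624 at 0.05. The share of interaction calls above 0 was 47% and became 58.7% and 59.5% without hypoxic shControl replicates 2 and 3. With all libraries kept, it was 54.3% with median-of-ratios size factors, 51% with upper-quartile factors, 51.2% with library totals alone and 56.5% in DESeq2. It was 50.8% without a filter, 46.3% with a filter of 1 CPM in 3 libraries, 45.8% after thinning and 47.1% with the replicate block. With library totals alone, 61.6% of calls were higher in hypoxia in shControl cells and 63.4% in shRIPOR3 cells, against 50% and 45.3%.

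Same-numbered libraries of different groups were at most weakly correlated (correlations -0.127 to 0.131, median 0.0145 over 18 pairs). Of 12 libraries, 6 correlated best with their own number. The numbers were not used as pairs. With the replicate number as a block, 9694 genes were called between hairpins in hypoxia, 7119 in normoxia, 8664 between oxygen levels in shRIPOR3, 10113 in shControl and 3596 for the interaction, each within 1.5 times the count without it, and no call for the 10 genes changed. LATS2 in normoxia rests on the fewest reads of the set, 813 counts over the shRIPOR3 and 545 over the shControl libraries.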
